A study of Homo sapiens with 6 samples.

Results

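Host genes of microRNAs and small nucleolar RNAs (snoRNAs) were compared between S22A-progerin and wt-progerin in U-2 OS cells. Members were all genes whose symbol starts with MIR and ends in HG, which gave 26 microRNA host genes, and all genes named SNHG with a number plus GAS5, which gave 10 snoRNA host genes. Together they were 36 of the 14884 genes with a named probe set, and RefSeq classes all 36 as long non-coding RNAs. U-2 OS is an established human osteosarcoma cell line, and progerin is the truncated form of lamin A found in Hutchinson-Gilford progeria. Both groups received a retrovirus and were selected with puromycin at 5 µg/ml for 3 days. The virus carried wt-progerin in 3 arrays and S22A-progerin, a mutant of it, in the other 3, and total RNA was taken 4 days after infection. Cells lacking progerin were not analysed here, and every difference is between these progerin forms. The series describes the 3 arrays of a group as independent replicas of 1 cell line, so p-values measure the spread between those replicas.

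A microRNA begins as a hairpin within a long primary transcript made by RNA polymerase II. The Drosha and DGCR8 proteins cut the hairpin out, Dicer trims it, and an Argonaute protein carries the mature microRNA to messages that pair with its seed. Most human snoRNAs lie in introns and are freed after splicing, and they guide methylation or pseudouridylation of ribosomal RNA. The spliced remainder of many snoRNA hosts starts with a run of pyrimidines, as messages of ribosomal proteins do, and is degraded by nonsense-mediated decay when it is translated.

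The microRNAs that these hosts carry are shown first because several hosts share seeds. RefSeq (GRCh38.p14) lists 61 mature sequences within 22 of the hosts, 21 of them microRNA hosts. A sequence made from several genes is counted for each, and those of MIR5583-1 lie on the strand opposite to MIR924HG. The capitals mark the seed, bases 2 to 8. The following sequences belong to hosts whose levels differed, or share a seed with one of those.
hsa-let-7a-5p in MIR100HG: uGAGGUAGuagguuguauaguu
hsa-let-7c-5p in MIR99AHG: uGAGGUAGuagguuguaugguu
hsa-miR-4500 in MIR4500HG: uGAGGUAGuaguuucuu
hsa-miR-100-5p in MIR100HG: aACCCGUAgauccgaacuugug
hsa-miR-99a-5p in MIR99AHG: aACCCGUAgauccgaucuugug
hsa-miR-125b-5p in MIR100HG: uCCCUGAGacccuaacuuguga
hsa-miR-31-5p in MIR31HG: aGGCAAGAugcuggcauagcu
hsa-miR-137-3p in MIR137HG: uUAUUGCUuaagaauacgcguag
hsa-miR-924 in MIR924HG: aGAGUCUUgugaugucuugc
hsa-miR-181a-5p in MIR181A2HG and MIR181A1HG: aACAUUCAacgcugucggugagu
hsa-miR-181b-5p in MIR181A1HG: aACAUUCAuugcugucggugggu

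The let-7 seed GAGGUAG occurs in products of 3 hosts, MIR100HG, MIR99AHG and MIR4500HG. MIR100HG and MIR99AHG share a further seed, ACCCGUA, through miR-100 and miR-99a. The miR-181 seed ACAUUCA is carried by MIR181A1HG and MIR181A2HG, and MIR9-2HG and MIR9-3HG carry the same mature miR-9. Hosts with a shared seed did not all pass the test in the same direction, as the values below show.

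Values are deposited log2 values, and a difference is the S22A-progerin mean minus the wt-progerin mean on that scale. A gene was called when the limma test fitted over all 14884 genes gave a Benjamini-Hochberg adjusted p below 0.05. Over all genes 25.4% were called, 10.8% higher and 14.6% lower in S22A-progerin cells. Among the 1398 long non-coding RNA genes these shares were 15.3%, 7.51% and 7.80%. Of the 10 snoRNA hosts 4 rose (40%), 1 fell (10%) and 5 did not pass. Of the 26 microRNA hosts 4 rose (15.4%), 3 fell (11.5%) and 19 did not pass. The median difference was 0.15 for snoRNA hosts and 0.07 for microRNA hosts, beside -0.00367 for all genes and 0.02 for long non-coding RNA genes. Without wt-progerin replicate 1 the microRNA host median was -0.01, and without S22A-progerin replicate 3 it was 0.02.

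**Figure D1:**
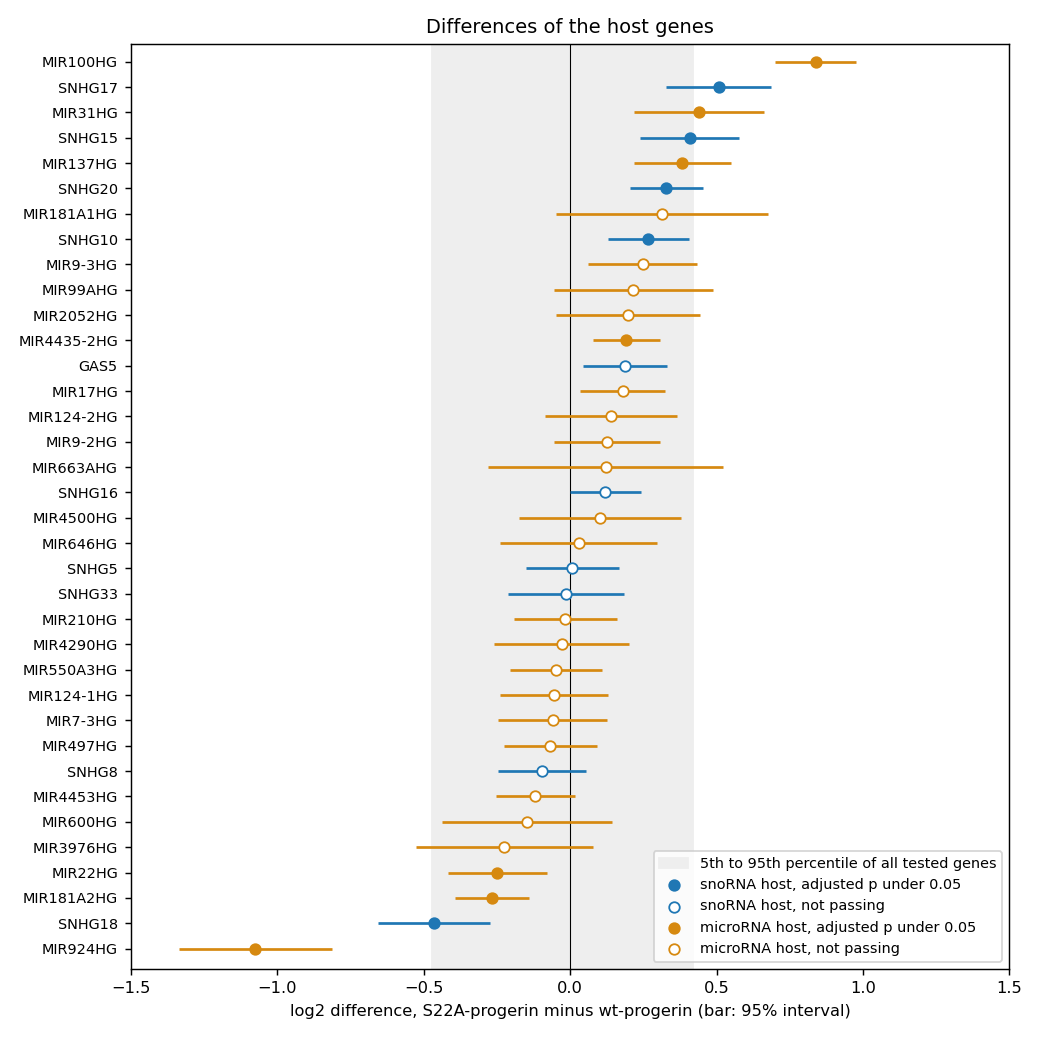
Difference of each host gene (S22A-progerin minus wt-progerin, log2) on the x axis, with its 95% interval as a bar, snoRNA hosts in blue and microRNA hosts in orange, filled points for members that passed and a grey band from the 5th to the 95th percentile of all genes. Members extend from MIR924HG at -1.07 to MIR100HG at 0.84, and 12 of the 36 passed the test.

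The classes sat at different heights on the array. Of the microRNA hosts, 21 of 26 had a mean below the median of all genes in the wt-progerin arrays, against 1 of 10 snoRNA hosts. A separate fit of the brighter 50% of genes alone, with its own adjustment, called 3734 (1369 higher, 2365 lower). The fit over all 14884 genes called 3777. Of the snoRNA hosts 9 of 10 were in that brighter part. Of these 9, the fit over all genes called 5 and the separate fit 6. The share of all genes called may thus understate that of genes at their level. The share of brighter genes called in the fit over all genes was not computed. The median SD between replicate arrays was 0.07 (wt-progerin) and 0.12 (S22A-progerin) for microRNA hosts and 0.04 and 0.09 for snoRNA hosts. No detection call was used here, so a dim probe set cannot be told from one that reads no transcript. RNA came from whole cultures, so fewer cells expressing a gene and less RNA per cell cannot be told apart.

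In the snoRNA hosts, SNHG17, SNHG15, SNHG20 and SNHG10 rose and SNHG18 fell. SNHG17 carries the SNORA71 family, which belongs to the H/ACA class that guides pseudouridylation. SNHG17 read 8.54, 8.63 and 8.43 in the wt-progerin arrays and 9.06, 8.94 and 9.12 in the S22A-progerin arrays. All 3 S22A-progerin values lay above all wt-progerin values. Its mean went from 8.53 ± 0.099 to 9.04 ± 0.095 (SD, n = 3 each), a difference of 0.51 (SE 0.076, 1.42-fold; limma adjusted p = 0.00312).

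SNHG15, a host of SNORA9, read 8.97, 8.97 and 8.94 with wt-progerin and 9.48, 9.39 and 9.23 with S22A-progerin. The groups did not overlap, and the S22A-progerin arrays were spread more widely (SD 0.12 against 0.018). The difference was 0.41 (SE 0.0717, 1.33-fold; limma adjusted p = 0.00612).

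SNHG20 carries SCARNA16, a guide RNA of Cajal bodies, and MIR6516. SNHG20 read 9.05, 9.05 and 8.99 with wt-progerin and 9.41, 9.34 and 9.32 with S22A-progerin, again without overlap. It rose by 0.33 (SE 0.0532, 1.26-fold; limma adjusted p = 0.00441).

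SNHG10 carries another Cajal body RNA, SCARNA13. SNHG10 read 7.72, 7.81 and 7.86 with wt-progerin and 8.09, 8.03 and 8.08 with S22A-progerin. Every S22A-progerin array was above every wt-progerin array, by a difference of means of 0.27 (SE 0.0581, 1.20-fold; limma adjusted p = 0.0146). Without wt-progerin replicate 1, the lowest of its group, the difference was 0.23 and the limma adjusted p = 0.0559.

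SNHG18, the host of SNORD123, was the single snoRNA host called lower. SNHG18 read 7.57, 7.49 and 7.75 with wt-progerin and 7.11, 7.22 and 7.09 with S22A-progerin. All S22A-progerin values were below all wt-progerin values. The means were 7.60 ± 0.13 and 7.14 ± 0.074 (SD, n = 3 each), a difference of -0.46 (SE 0.0809, limma adjusted p = 0.00599), which made it 1.38-fold lower.

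**Figure D2:**
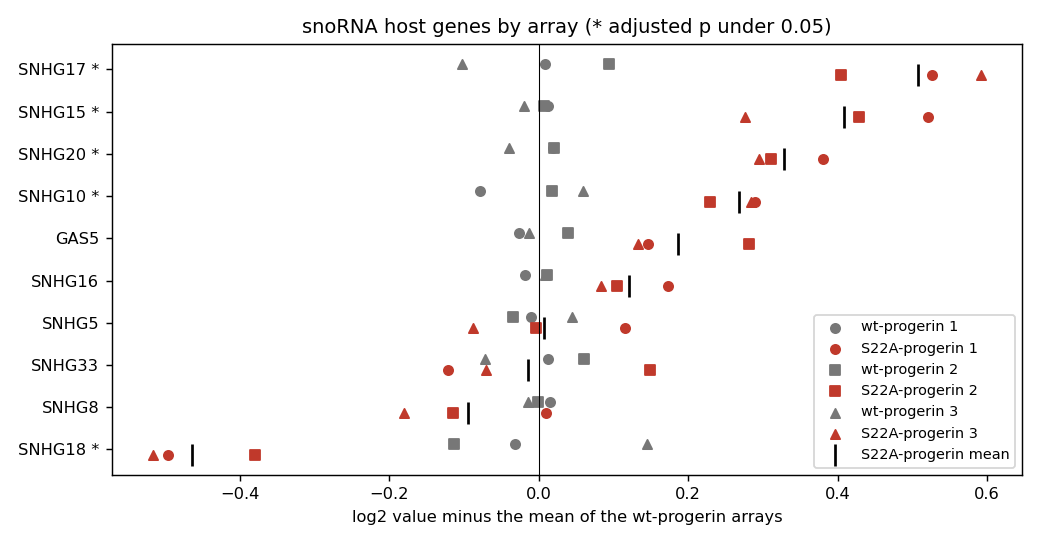
Log2 value of each array minus the mean of the wt-progerin arrays (x axis) for the 10 snoRNA host genes, with wt-progerin in grey, S22A-progerin in red, a symbol for each replicate number and a black line at the S22A-progerin mean. SNHG17, SNHG15, SNHG20 and SNHG10 sit higher in all 3 S22A-progerin arrays and SNHG18 lower in all 3, while the arrays of SNHG5, SNHG8 and SNHG33 overlap.

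GAS5 and SNHG16 did not pass, although their groups did not overlap. GAS5, first described as a transcript that accumulates in growth-arrested cells, holds 11 snoRNAs by RefSeq. GAS5 read 9.95, 10.02 and 9.97 with wt-progerin and 10.12, 10.26 and 10.11 with S22A-progerin, and every S22A-progerin array was the higher. The difference was 0.19 (95% interval 0.043 to 0.330, limma adjusted p = 0.0644). SNHG16, the host of the SNORD1 family, read 12.07, 12.10 and 12.09 with wt-progerin and 12.26, 12.19 and 12.17 with S22A-progerin. Its difference of 0.12 was small (95% interval -0.002 to 0.243, limma adjusted p = 0.141). Groups that did not overlap were found in 42.1% of all genes, 18.5% higher and 23.6% lower, in 28.0% of long non-coding RNA genes, 14.5% higher and 13.4% lower, and in 7 of 10 snoRNA hosts, 6 higher and 1 lower.

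The other 3 snoRNA hosts overlapped between groups. SNHG5, which holds SNORD50A and SNORD50B, read 8.33, 8.31 and 8.39 with wt-progerin and 8.46, 8.34 and 8.25 with S22A-progerin, a difference of 0.01 (95% interval -0.151 to 0.166). SNHG33, which holds SNORA63D and SNORA63E, read 6.97, 7.02 and 6.89 with wt-progerin and 6.84, 7.11 and 6.89 with S22A-progerin. SNHG8, the host of SNORA24, read 9.84, 9.83 and 9.81 with wt-progerin and 9.84, 9.71 and 9.65 with S22A-progerin. In SNHG8 one S22A-progerin array matched the wt-progerin level and the other two were lower, for a difference of -0.09 (95% interval -0.244 to 0.055). All 5 members that did not pass had intervals within 0.5 of no difference.

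Start sequences were examined because a pyrimidine run at the start marks many messages of the translation machinery. RefSeq promoters (GRCh38.p14) were given for 9 snoRNA hosts. The windows below run from 20 bases before to 30 bases from the first listed start, and capitals mark a C followed by at least 4 further pyrimidines that begins within 10 bases of it.
SNHG17, chr20:38435299-38435348, minus strand: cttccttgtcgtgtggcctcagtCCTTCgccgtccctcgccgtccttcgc
SNHG20, chr17:77088623-77088672, plus strand: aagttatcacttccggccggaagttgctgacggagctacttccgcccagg
SNHG10, chr14:95534843-95534892, minus strand: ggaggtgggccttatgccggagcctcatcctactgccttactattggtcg
SNHG18, chr5:9546180-9546229, plus strand: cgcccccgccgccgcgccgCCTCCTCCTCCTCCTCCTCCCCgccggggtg
SNHG16, chr17:76557744-76557793, plus strand: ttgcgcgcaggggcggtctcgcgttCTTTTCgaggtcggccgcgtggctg
SNHG5, chr6:85678704-85678753, minus strand: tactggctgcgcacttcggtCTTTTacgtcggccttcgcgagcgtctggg
SNHG8, chr4:118278742-118278791, plus strand: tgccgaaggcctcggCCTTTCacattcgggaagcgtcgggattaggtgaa

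Such a run was found in 6 of the 9 snoRNA hosts (66.7%), in 7 of 21 microRNA hosts (33.3%) and in 33.3% of all 27303 promoters. Among snoRNA hosts it was present in SNHG17, which rose, in SNHG18, which fell, and in SNHG5, SNHG8, SNHG16 and SNHG33, which did not pass. It was absent from the windows of SNHG20 and SNHG10, which rose, and from that of GAS5. Members with a run and members without one were thus found among those that rose. The first listed start may not be the one used in these cells, which was not tested.

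Of the microRNA hosts, MIR100HG, MIR31HG, MIR137HG and MIR4435-2HG rose, and MIR924HG, MIR181A2HG and MIR22HG fell. MIR100HG, the primary transcript of miR-100, let-7a-2 and miR-125b-1, had the highest difference of the 36 host genes. MIR100HG read 6.04, 6.12 and 6.03 with wt-progerin and 6.87, 6.87 and 6.97 with S22A-progerin. The groups lay far apart compared with the spread within either. The means were 6.06 ± 0.053 and 6.90 ± 0.059 (SD, n = 3 each), a difference of 0.84 (SE 0.0584, 1.79-fold; limma adjusted p = 0.000121).

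MIR31HG, which carries miR-31 on chromosome 9 and is known from work on cell senescence, also rose. MIR31HG read 5.51, 5.40 and 5.49 with wt-progerin and 6.10, 5.87 and 5.76 with S22A-progerin. The S22A-progerin arrays were all higher, with replicate 1 the highest of them. Its difference was 0.44 (SE 0.0938, 1.36-fold; limma adjusted p = 0.0135).

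MIR137HG carries miR-137, a microRNA best known from neurons, and MIR2682. MIR137HG read 5.17, 5.12 and 5.04 with wt-progerin and 5.41, 5.46 and 5.61 with S22A-progerin, without overlap. It rose by 0.38 (SE 0.0701, 1.30-fold; limma adjusted p = 0.00729). MIR137HG and MIR31HG were dim, at the 16.4 and 22.5 percentile of all genes by mean value.

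MIR924HG, whose intron holds miR-924, had the lowest difference of the 36 host genes. MIR924HG read 7.20, 7.46 and 7.18 with wt-progerin and 6.19, 6.04 and 6.39 with S22A-progerin. All S22A-progerin arrays were well below the wt-progerin arrays. The means were 7.28 ± 0.16 and 6.21 ± 0.17 (SD, n = 3 each), a difference of -1.07 (SE 0.111, limma adjusted p = 0.000627), which made it 2.10-fold lower.

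MIR181A2HG carries a copy of miR-181a. MIR181A2HG read 6.98, 7.03 and 7.01 with wt-progerin and 6.79, 6.75 and 6.69 with S22A-progerin, and all S22A-progerin arrays were lower. Its difference was -0.27 (SE 0.0535, limma adjusted p = 0.0106). MIR181A1HG, which carries the other copy, did not pass. MIR181A1HG read 7.03, 7.12 and 7.07 with wt-progerin and 7.34, 7.08 and 7.74 with S22A-progerin, so that replicate 2 stayed within the wt-progerin range while replicates 1 and 3 were above it. Its difference was 0.31 with a wide interval (95% interval -0.049 to 0.677, limma adjusted p = 0.191). Without S22A-progerin replicate 3 the difference was 0.14, and without S22A-progerin replicate 2 it was 0.47 (limma adjusted p = 0.0446).

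MIR22HG, which gives rise to miR-22 and is known to respond to several stresses, read 7.26, 7.24 and 7.22 with wt-progerin and 7.11, 7.00 and 6.87 with S22A-progerin. Every S22A-progerin array was lower, and their spread was the wider (SD 0.12 against 0.024). The difference was -0.25 (SE 0.0713, limma adjusted p = 0.0418). This call was lost without any of the wt-progerin arrays (limma adjusted p = 0.12, 0.104 and 0.0959 without replicates 1, 2 and 3) and without S22A-progerin replicate 2 (0.0927) or 3 (0.0715).

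**Figure D3:**
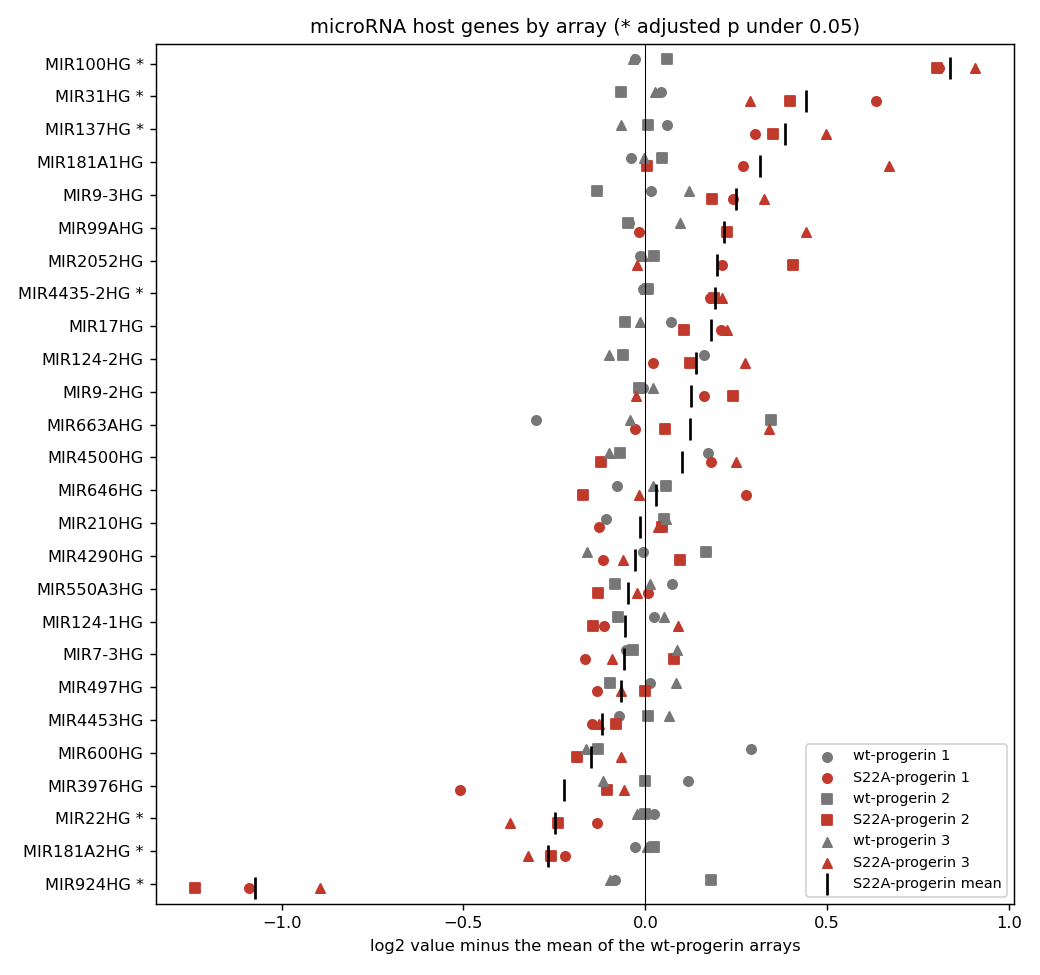
Log2 value of each array minus the mean of the wt-progerin arrays (x axis) for the 26 microRNA host genes, with wt-progerin in grey, S22A-progerin in red, a symbol for each replicate number and a black line at the S22A-progerin mean. MIR100HG (0.84) and MIR924HG (-1.07) show the widest gaps between the groups, and most other members overlap.

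MIR4435-2HG, also known as MORRBID, regulates the death gene BCL2L11 in myeloid cells. MIR4435-2HG read 11.90, 11.91 and 11.90 with wt-progerin and 12.08, 12.09 and 12.12 with S22A-progerin. The groups were tight and did not overlap, and the difference was 0.19 (SE 0.0479, 1.14-fold; limma adjusted p = 0.0248). This call was lost without any of the wt-progerin arrays (limma adjusted p = 0.0851, 0.0752 and 0.0864 without replicates 1, 2 and 3) and without S22A-progerin replicate 1 (0.0518) or 2 (0.0561).

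MIR4435-2HG was the single member with several probe sets, 3 in all, and they did not move alike. Its second probe set read 9.89, 9.97 and 9.91 with wt-progerin and 10.26, 10.18 and 10.71 with S22A-progerin, a difference of 0.46 (SE 0.133, limma adjusted p = 0.0435 in the fit of all 16098 named probe sets). S22A-progerin replicate 3 stood above the other arrays there. The third probe set read 9.22, 9.18 and 9.26 with wt-progerin and 9.09, 9.20 and 9.03 with S22A-progerin, a difference of -0.11 that did not pass (limma adjusted p = 0.265).

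Another gene may bear on these values. CYTOR, another long non-coding RNA on chromosome 2, shares a stretch with MIR4435-2HG near a listed start. All listed starts of both genes were compared, and the best match is shown. Most of each window lies before the start, so the match does not show how alike the transcripts are. The RefSeq promoter windows of both genes (GRCh38.p14) share the following stretch, identical in 241 of 241 bases, with an AP-1 motif TGAGTCA in capitals.
MIR4435-2HG, chr2:111495112-111495352, minus strand, and CYTOR, chr2:87455177-87455417, plus strand: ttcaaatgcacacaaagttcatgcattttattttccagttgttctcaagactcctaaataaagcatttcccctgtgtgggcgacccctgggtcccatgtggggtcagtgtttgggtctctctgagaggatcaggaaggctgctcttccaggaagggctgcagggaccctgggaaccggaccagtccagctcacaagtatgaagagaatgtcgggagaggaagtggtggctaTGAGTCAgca

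The 3 probe sets of CYTOR were also higher in S22A-progerin cells. The first read 12.07, 12.06 and 12.06 with wt-progerin and 12.35, 12.38 and 12.45 with S22A-progerin (difference 0.33, limma adjusted p = 0.0040). The second differed by 0.44 (limma adjusted p = 0.0068), and the third by 0.54 without passing (limma adjusted p = 0.0975). In the third, S22A-progerin replicate 3 read 11.45 against 10.71 and 10.64 in the other S22A-progerin arrays. The positions of the probes were not used here, so signal from CYTOR and from MIR4435-2HG cannot be told apart and the rise of MIR4435-2HG is uncertain.

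**Figure D4:**
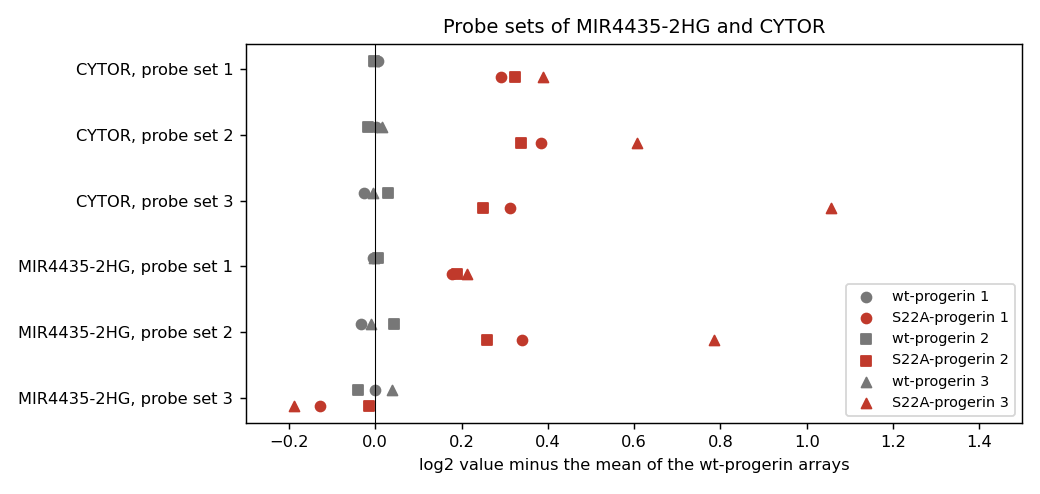
Each array's log2 value minus the mean of the wt-progerin arrays (x axis) for the 3 probe sets of MIR4435-2HG and the 3 of CYTOR, wt-progerin in grey and S22A-progerin in red, with a symbol for each replicate number. Probe sets 1 and 2 of MIR4435-2HG and all 3 of CYTOR are higher in each S22A-progerin array, with S22A-progerin replicate 3 far to the right in 3 of them, and probe set 3 of MIR4435-2HG differs by -0.11.

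The 19 microRNA hosts that did not pass had differences from -0.22 to 0.31 and limma adjusted p from 0.0587 to 0.908. All 19 intervals lay within 1 log2 unit of no difference, and 16 within 0.5. Groups did not overlap in 3 of them, and in 10 of the 26 microRNA hosts in all, 6 higher and 4 lower, beside 42.1% of all genes, 18.5% higher and 23.6% lower. MIR9-3HG, a source of miR-9, read 6.11, 5.96 and 6.21 with wt-progerin and 6.33, 6.27 and 6.42 with S22A-progerin, each S22A-progerin array being higher (difference 0.25, limma adjusted p = 0.0587). MIR9-2HG, which carries the same mature microRNA, read 5.48, 5.46 and 5.50 with wt-progerin and 5.64, 5.72 and 5.46 with S22A-progerin. Here S22A-progerin replicate 3 was in the wt-progerin range (difference 0.13, limma adjusted p = 0.285), and without that array the limma adjusted p = 0.0463.

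MIR17HG, the primary transcript of a cluster that begins with miR-17 and a known target of MYC, holds 6 microRNA genes. The mature forms below show the 4 seeds of the cluster's main strands.
hsa-miR-17-5p: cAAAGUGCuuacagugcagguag
hsa-miR-18a-5p: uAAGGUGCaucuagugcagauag
hsa-miR-19a-3p: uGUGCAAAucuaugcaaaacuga
hsa-miR-19b-3p: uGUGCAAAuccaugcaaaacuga
hsa-miR-20a-5p: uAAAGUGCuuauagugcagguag
hsa-miR-92a-3p: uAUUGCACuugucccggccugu

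MIR17HG read 6.52, 6.40 and 6.44 with wt-progerin and 6.66, 6.56 and 6.68 with S22A-progerin. The S22A-progerin arrays were all higher, yet the difference of 0.18 did not pass (95% interval 0.036 to 0.324, limma adjusted p = 0.0736). MIR4453HG was lower in each S22A-progerin array, at 7.39, 7.47 and 7.53 with wt-progerin and 7.32, 7.38 and 7.34 with S22A-progerin (difference -0.12, limma adjusted p = 0.19).

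MIR99AHG, the counterpart of MIR100HG with miR-99a and let-7c, read 5.17, 5.16 and 5.31 with wt-progerin and 5.20, 5.44 and 5.66 with S22A-progerin. The groups overlapped through S22A-progerin replicate 1. The difference was 0.22 (95% interval -0.056 to 0.489, limma adjusted p = 0.228), and without that array it was 0.33 (limma adjusted p = 0.0498). MIR4500HG, the other host with a let-7 seed, differed by 0.10 (limma adjusted p = 0.587).

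MIR210HG, the host of the hypoxia-induced miR-210, read 6.68, 6.84 and 6.85 with wt-progerin and 6.66, 6.84 and 6.83 with S22A-progerin. These groups were nearly superimposed (difference -0.02, limma adjusted p = 0.908). MIR550A3HG read 8.05, 7.89 and 7.99 with wt-progerin and 7.98, 7.85 and 7.95 with S22A-progerin, also with overlap. MIR497HG, the host of miR-497 and miR-195, differed by -0.07 (limma adjusted p = 0.53). The hosts of miR-124, MIR124-1HG and MIR124-2HG, differed by -0.06 and 0.14 without passing. MIR2052HG differed by 0.20 (limma adjusted p = 0.223), and without S22A-progerin replicate 3 its limma adjusted p = 0.0299. Differences between -0.22 and 0.12 were found in MIR3976HG, MIR600HG, MIR7-3HG, MIR4290HG, MIR646HG and MIR663AHG.

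Motifs were counted on both strands of 300-base promoters, 250 bases before to 50 after the first listed start, for 21 microRNA hosts, 9 snoRNA hosts and all 27303 promoters. The AP-1 motif TGAGTCA was present in MIR181A1HG and MIR4435-2HG (9.52% of microRNA hosts), in 0 snoRNA hosts and in 4.92% of all promoters. An E2F motif, TTTGGCGC or TTTCGCGC, was present in SNHG17 and in 1.18% of all promoters. The CCAAT motif was found in 52.4% of microRNA hosts, 44.4% of snoRNA hosts and 35.7% of all promoters. The cAMP-response motif TGACGTCA and the E-box CACGTG were found in none of the 30 host promoters, against 1.98% and 7.44% of all promoters.

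The array also named 23 products within 18 of the hosts, 22 microRNA genes and SCARNA16. A product's probe set may read the precursor or the host transcript around it, and mature microRNAs were not measured apart. Of the 23 products 1 was called, the let-7a-2 gene, beside 25.4% of all genes. Groups did not overlap in 4 of the 23, beside 42.1% of all genes. MIRLET7A2 read 5.07, 5.11 and 4.82 with wt-progerin and 6.40, 6.22 and 6.41 with S22A-progerin. All 3 S22A-progerin arrays were more than 1 log2 unit above all wt-progerin arrays. The means were 5.00 ± 0.16 and 6.34 ± 0.10 (SD, n = 3 each), a difference of 1.34 (SE 0.0938, 2.53-fold; limma adjusted p = 0.000123).

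The other microRNA genes of MIR100HG did not pass. MIR100 read 2.58, 2.47 and 2.93 with wt-progerin and 2.95, 2.73 and 2.89 with S22A-progerin, with overlap (difference 0.19, limma adjusted p = 0.315). MIR125B1, at a mean of 2.76 with wt-progerin, differed by 0.05 (limma adjusted p = 0.80). Both probe sets were dim and cannot be told from ones that read no transcript. Whether the 3 products differ from each other in their change was not tested.

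Products of the other called hosts had the sign of their host but did not pass with all 6 arrays. MIR2682 in MIR137HG read 5.31, 5.44 and 5.14 with wt-progerin and 5.54, 5.51 and 5.66 with S22A-progerin, without overlap (difference 0.27, limma adjusted p = 0.0612). Without wt-progerin replicate 2 it passed (difference 0.35 on the log2 scale, limma adjusted p = 0.0371). MIR924 read 5.87, 5.74 and 5.38 with wt-progerin and 5.11, 5.26 and 5.82 with S22A-progerin, and S22A-progerin replicate 3 lay in the wt-progerin range (difference -0.27, limma adjusted p = 0.396). MIR31 differed by 0.22 (limma adjusted p = 0.431) and MIR181A2 by -0.31 (limma adjusted p = 0.265). Without S22A-progerin replicate 3 the MIR181A2 difference was -0.51 (limma adjusted p = 0.0384). SCARNA16 in SNHG20 read 8.50, 8.76 and 8.70 with wt-progerin and 8.77, 8.79 and 9.05 with S22A-progerin, just without overlap (difference 0.22, limma adjusted p = 0.17).

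Over all 23 products 16 had the sign of their host's difference and 7 the opposite. In the 6 called hosts with a named product, 8 of 8 products had the host's sign. MIR99AHG was on the other side: MIR99A read 6.49, 6.36 and 6.22 with wt-progerin and 6.11, 6.15 and 6.06 with S22A-progerin, all lower (difference -0.25, limma adjusted p = 0.0598). MIR99A passed with a second quantile step (limma adjusted p = 0.0384), with each array centred on its median (0.0385) and without wt-progerin replicate 3 (0.0331). MIRLET7C in the same host differed by -0.34 (limma adjusted p = 0.0997), and without S22A-progerin replicate 3 its limma adjusted p = 0.0365. Hosts and products were read on the same arrays and may share probes, so the shared sign is a description.

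**Figure D5:**
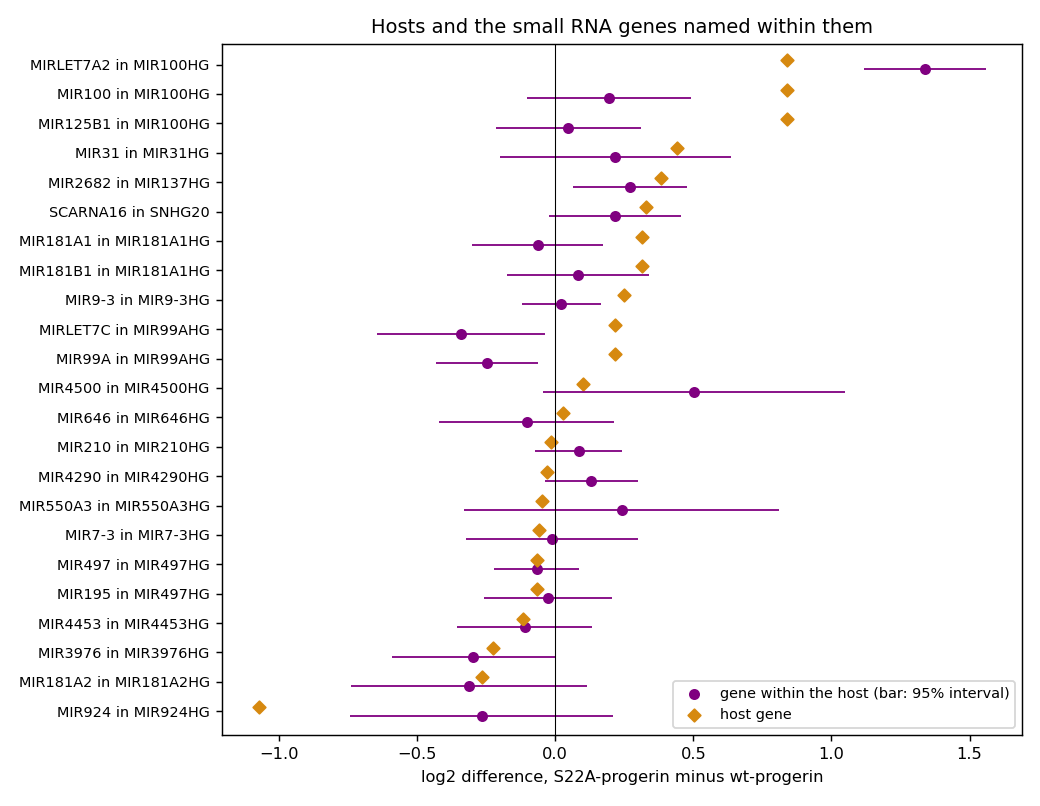
Difference of each of the 23 products (purple points, with 95% intervals as bars) and of its host gene (orange diamonds) on the x axis, in log2, S22A-progerin minus wt-progerin. MIRLET7A2 stands farthest right at 1.34 beside 0.84 for MIR100HG, and 7 of the 23 products have the sign opposite to their host.

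Genes next to or across from a host were examined where they were named on the array. GAS5-AS1, annotated across GAS5, read 6.04, 5.95 and 6.35 with wt-progerin and 5.69, 5.29 and 5.32 with S22A-progerin, all lower (difference -0.68, limma adjusted p = 0.0122), while the GAS5 difference was 0.19. ZBTB37, which starts 665 bases from GAS5 on the other strand, differed by -0.01. TMEM200C, which overlaps MIR3976HG on the opposite strand, read 7.58, 7.52 and 7.62 with wt-progerin and 6.87, 6.86 and 7.14 with S22A-progerin. TMEM200C was lower in all 3 S22A-progerin arrays (difference -0.62, limma adjusted p = 0.00223), beside a difference of -0.22 in MIR3976HG that did not pass. Whether probe sets of these overlapping genes keep the strands apart was not tested.

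GLRX5, a gene of iron-sulfur cluster assembly that starts 178 bases from SNHG10 on the opposite strand, fell where SNHG10 rose. GLRX5 read 7.02, 7.03 and 7.07 with wt-progerin and 6.83, 6.86 and 6.84 with S22A-progerin, without overlap (difference -0.20, limma adjusted p = 0.0243). Its call was lost in 5 of the 6 fits that left out an array, all but the one without S22A-progerin replicate 3, with limma adjusted p from 0.0504 to 0.0961. WDR81, which starts 313 bases from MIR22HG on the opposite strand, read 8.03, 8.02 and 7.90 with wt-progerin and 8.24, 8.13 and 8.12 with S22A-progerin. WDR81 was higher in each S22A-progerin array without passing (difference 0.18, limma adjusted p = 0.087), and MIR22HG was lower.

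Genes that act on these transcripts were examined next, beside the 10.8% of all genes called higher and the 14.6% called lower. The lists were measured in part: 12 of 22 genes of microRNA processing, 15 of 20 of snoRNA particles and 10 of 20 of nonsense-mediated decay. For the translation factors described below it was 9 of 20, and for protein-coding hosts 24 of 41 (microRNA) and 13 of 50 (snoRNA). Drosha, Dicer and the Argonautes were not among the 12. Of 12 measured genes of microRNA processing 1 rose (8.33%) and 2 fell (16.7%), with a median difference of -0.08. TNRC6C, an Argonaute partner in silencing, fell by 0.52 on the log2 scale (limma adjusted p = 0.0087) and kept its call in all 13 alternative fits. DDX5, a helicase of the Drosha complex, differed by -0.17 and LIN28A, which blocks let-7 maturation, by 0.30, and these calls did not last: without wt-progerin replicate 1, 2 or 3 the list had 0 higher and 1 lower, as it had without S22A-progerin replicate 2. Without S22A-progerin replicate 1 the DDX5 call was lost (1 higher, 1 lower). Without S22A-progerin replicate 3 both were lost and another gene of the list passed (0 higher, 2 lower).

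Of 15 measured genes of the snoRNA particles and their assembly 1 rose and 1 fell (6.67% each, median -0.04). NOP10, a core protein of H/ACA particles, rose by 0.31 (limma adjusted p = 0.00761, kept in all 13 alternative fits). RUVBL1, an assembly ATPase, differed by -0.24 (limma adjusted p = 0.0289), and its call was lost (0 lower) without any 1 of the wt-progerin arrays or without S22A-progerin replicate 2 or 3.

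In nonsense-mediated decay 0 of 10 measured genes rose in the limma test, and 2 fell (20%, median -0.06). At an unadjusted p below 0.05 there were also 0 higher, where 5463 of all 14884 genes met that level in either direction. Both genes of the list that fell belong to the exon junction complex. EIF4A3 and CASC3 of the same complex did not pass (differences -0.08 and -0.03, limma adjusted p = 0.43 and 0.744). MAGOHB differed by -0.53 (limma adjusted p = 0.0014, kept in all 13 alternative fits). RBM8A differed by -0.31 (limma adjusted p = 0.0403), a call lost (1 lower) without any 1 of the wt-progerin arrays or without S22A-progerin replicate 2 or 3.

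Genes of the ribosome and of translation, many of which are known for a pyrimidine run at the start, were set beside the snoRNA hosts. The starts of these genes were not examined here. Of 49 genes with symbols of cytosolic ribosomal proteins, among them the paralogs RPS27L, RPL39L, RPL10L and RPL3L, 6 rose (12.2%, beside 10.8% of all genes) and 0 fell in the limma test (median 0.06). The counts were 9 higher and 1 lower at an unadjusted p below 0.05, a level that 5463 of all 14884 genes met in either direction. RPS27L rose by 0.50 (limma adjusted p = 0.00282, kept in all 13 alternative fits), RPS19 by 0.26, RPL19 by 0.21 and RPL29 by 0.22. The calls of RPS19, RPL19 and RPL29 were kept in 11, 7 and 6 of the 13 fits. With probe sets averaged RPL19 differed by 0.12 and did not pass (limma adjusted p = 0.137). The number that rose was 1 without wt-progerin replicate 1 or 2, 2 without wt-progerin replicate 3, 3 without S22A-progerin replicate 1 or 2, 2 with each array centred on its median, and 10 with trend and robust priors. A second list held translation factors and a few other genes (HNRNPA1, NAP1L1 and IPO5 among those measured), and of its 9 measured genes 3 rose (33.3%) and 1 fell (11.1%; median -0.06). FAU, a fusion of a ubiquitin-like protein with a ribosomal protein, rose by 0.35 (limma adjusted p = 0.00537) and HNRNPA1, an RNA-binding protein, fell by 0.49 on the log2 scale (limma adjusted p = 0.000846). The translation factors EEF1G and EIF4B differed by 0.23 and 0.19, but with probe sets averaged by 0.13 and 0.05 (limma adjusted p = 0.118 and 0.651), and neither then passed. The number higher was 1 without any 1 of the wt-progerin arrays or S22A-progerin replicates 1 or 2, and without S22A-progerin replicate 3 the number lower was 2.

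Protein-coding hosts gave a further comparison. Of 24 measured protein-coding microRNA hosts 2 rose (8.33%) and 4 fell (16.7%; median -0.10). SMC4, a condensin subunit that hosts miR-15b and miR-16-2, fell by 0.56 on the log2 scale (limma adjusted p = 0.000447). R3HDM1, the host of miR-128-1, fell by 0.36, and RCL1, the host of miR-101-2, rose by 0.42. VMP1, whose locus holds miR-21, differed by 0.19 (limma adjusted p = 0.025), a call kept in 6 of 13 alternative fits. It was lost without wt-progerin replicates 1, 2 and 3 (limma adjusted p = 0.0892, 0.0748 and 0.0833), without S22A-progerin replicates 1 and 2 (0.0651 and 0.0575) and with each array centred on its median (0.0762). SMC4, R3HDM1 and RCL1 kept their calls in all 13 alternative fits. The number lower was 2 without any 1 of the wt-progerin arrays, and the number higher was 1 without wt-progerin replicate 1 or 3 or S22A-progerin replicate 1.

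Of 13 measured protein-coding snoRNA hosts 1 rose and 1 fell (7.69% each, median -0.01). CHD4, a chromatin remodeller, fell by 0.34 on the log2 scale (limma adjusted p = 0.00364, kept in all 13 alternative fits). WDR43, a factor of ribosome assembly, differed by 0.21 (limma adjusted p = 0.0261). The WDR43 call was lost (0 higher) without any 1 of the wt-progerin arrays or S22A-progerin replicates 1 or 2, and without S22A-progerin replicate 3 there were 2 higher and 2 lower.

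Over all probe sets the wt-progerin arrays had medians of 6.044, 6.037 and 6.038, and the S22A-progerin arrays 6.05, 6.082 and 6.089. Each S22A-progerin median was thus slightly above every wt-progerin median. S22A-progerin replicate 3 was the farthest from its group's median in 39.2% of all genes, in 14 of the 26 microRNA hosts and in 1 of the 10 snoRNA hosts. Without it 3601 of all genes were called, 1553 higher and 2048 lower. Among them were 8 microRNA hosts, 6 higher and 2 lower, and 5 snoRNA hosts, 4 higher and 1 lower. Of the mesenchymal and bone markers, 3 of 7 were named on the array, with VIM at the 97.1 percentile, RUNX2 at 72.5 and SP7 at 32.6, and RUNX2 was lower in S22A-progerin cells (8.77 against 8.03, limma adjusted p = 0.00096). The 3 of 6 leukocyte markers lay between the 11.0 and 44.1 percentile and the 3 of 4 epithelial markers between 7.1 and 48.3. Adjusted p of those 6 in the limma test ran from 0.131 to 0.999, and their part in the results was not tested.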

How the data were processed

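RNA of 6 cultures was hybridised to Affymetrix whole-transcript arrays, 3 per group. The log2 values were used as deposited; per the submitters' processing notes they come from Affymetrix Expression Console with RMA, whose versions the sources used here do not give. RMA forces the probe intensities of the arrays to 1 distribution before they are summarised, so a shift of all genes would be largely hidden. The medians of the summarised values still differed slightly between arrays, as given above. Of 53617 probe sets, 16098 had 1 gene symbol in GEO's platform annotation, 0 had several and 37519 were not named here. Each of the 14884 genes was represented by its probe set with the highest mean. Groups came from the labels. limma 3.58.1 in R 4.3.3 fitted S22A-progerin minus wt-progerin (lmFit and eBayes, two-sided), with Benjamini-Hochberg adjustment over all genes; the code was tested on simulated data. The number of arrays limits the precision. Sequences and neighbours came from RefSeq tables of GRCh38.p14, in which 117 symbols fit the rule for hosts; all 36 members are described, with values in every array for those that passed, had separate groups or stood in the top 5 of their class by level, and of each list up to 4 genes with the smallest p are named. Members and lists were chosen with earlier results of these data known. Alternatives were another quantile step, median centring, leaving out the dimmer 50% of genes, averaged probe sets, other priors, array weights, a replicate block, leaving out each array and a threshold of 0.01. Fits of the lists, products, neighbours and single probe sets under alternatives were added after seeing the data.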

Additional observations from a re-analysis of the deposited data

How the results depend on the processing

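The 12 called host genes kept their direction in each alternative fit that held them. At the 0.05 threshold MIR100HG, MIR31HG, MIR137HG, MIR924HG and MIR181A2HG kept their calls in 12 of 12 fits, which do not include the one without dim genes, since these 5 were left out of it. SNHG15, SNHG17, SNHG18 and SNHG20 kept theirs in 13 of 13, SNHG10 in 12, MIR22HG in 7 and MIR4435-2HG in 5. At an adjusted p of 0.01, 2078 genes were called (852 higher, 1226 lower) in place of 3777, 3 microRNA hosts (2 higher, 1 lower) in place of 7, and 4 snoRNA hosts (3 higher, 1 lower) in place of 5; MIR31HG, MIR181A2HG, MIR22HG, MIR4435-2HG and SNHG10 missed that threshold. With the dimmer 50% of genes left out, 3734 genes were called (1369 higher, 2365 lower). In that fit 5 microRNA hosts remained, 2 were called (1 higher, 1 lower) and the class median was -0.0481. Of the 9 snoRNA hosts that remained 6 were called (5 higher, 1 lower). With each array centred on its median the class medians were 0.0316 for microRNA hosts and 0.12 for snoRNA hosts, beside -0.0376 for all genes. Leaving out 1 array gave 2647 to 3601 called genes, 5 to 8 microRNA hosts with a class median from -0.00584 to 0.0811, and 4 to 5 snoRNA hosts. GAS5 passed with a second quantile step (adjusted p = 0.0429), without dim genes (0.0178), with trend and robust priors (0.011) and with array weights (0.0493), and SNHG16 with trend and robust priors (0.00995). MIR4435-2HG missed the threshold with median centring (0.0675) and with averaged probe sets (0.0599). Same-numbered arrays did not deviate together over all genes (correlations -0.0195, -0.0549 and -0.00558). The labels state no pairing, and correlations over 3 arrays per group cannot exclude a shared batch. With the replicate block 2990 genes, 6 microRNA hosts and 5 snoRNA hosts were called, MIR22HG (0.0611), MIR4435-2HG (0.0905) and GLRX5 (0.0871) no longer passed, and MIR9-3HG did (0.0499). Causes of these changes were not tested, other than that a stricter threshold or fewer genes can call fewer members.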

Other observations

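Some host genes are listed under other names and fell outside the rule. DNM3OS, the host of miR-199a-2, read 7.53, 7.42 and 7.48 with wt-progerin and 7.33, 7.28 and 7.31 with S22A-progerin, lower in all 3 S22A-progerin arrays (difference -0.17, limma adjusted p = 0.057). DANCR, also called SNHG13, and HAGLR, an antisense transcript of the HOXD cluster, both differed by 0.00 (limma adjusted p = 0.994 each). LINC02603, the let-7d host, differed by -0.20 (limma adjusted p = 0.219) and RAB11B-AS1 by -0.11 (limma adjusted p = 0.407).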
